A study of Mus musculus with 4 samples.

Results

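The mitochondrial carrier family, Slc25, was examined in skeletal muscle of mice with and without TBP-2, the protein also called Txnip. Members were the genes whose probes carry a name of the form Slc25a followed by a number in the scanner files, with 2 of the 42 matching names left out by the rule. This gave 40 genes, with 69 probes, of 27598 genes and named transcripts on the array. A gene is represented by its brightest probe, and its other probes served as a check (20 of the 40 genes had more than 1 probe).

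Slc25 proteins sit almost all in the inner mitochondrial membrane and exchange metabolites between the cytosol and the matrix. Together they carry ADP and ATP, phosphate, the carboxylates and amino acids of the malate-aspartate shuttle, citrate, basic amino acids, nucleotides, cofactors and iron. Muscle relies on them to export the ATP made by oxidative phosphorylation and to move reducing equivalents and amino acids into the matrix.

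Total RNA from skeletal muscle of 4 genotypes, taken from fed mice 10 weeks old, was hybridised to 1-colour arrays, with 1 array per genotype. The genotypes were WT, TBP-2-/-, ob/ob, which lacks functional leptin and becomes obese, and ob/ob TBP-2-/-, which carries both defects. The labels name neither the muscle, strain and sex nor the deleted part of the gene, and they do not say whether an RNA came from 1 mouse or a pool. The signal of the brightest Txnip probe was 13209 on WT, 868 on TBP-2-/-, 13142 on ob/ob and 166 on ob/ob TBP-2-/-, so both arrays labelled TBP-2-/- were low in the targeted transcript.

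The 4 arrays had between 22675 and 24221 of 41174 probes well above background, as the scanner software judges it, and the 75th percentile of the signal lay between 261 and 309. The 6 muscle markers (Ckm, Acta1, Tnnt3, Myh4, Mb and Des) were well above background on every array, with a summed scaled signal between 1762592 and 2014833. Markers of other cells differed between the arrays. The 5 slow fibre markers summed to 621929 on WT, 559505 on TBP-2-/-, 414502 on ob/ob and 365849 on ob/ob TBP-2-/-. The 6 adipocyte markers summed to 61798, 93515, 39858 and 73522 in the same order, so they were higher without TBP-2 on both backgrounds. The 5 tendon markers summed to 1687 on WT and to between 8532 and 14426 on the other arrays, the 5 Schwann cell markers to 775 on WT and to between 1266 and 2127 on the others, and the 5 macrophage and 5 erythroid markers to between 16415 and 21744 and between 50140 and 64825 on the 4 arrays. Of the 3 brown adipocyte markers, Ucp1 and Elovl3 were not well above background on any array. The part of these cell types in the carrier values was not tested. In bulk tissue, fewer cells of a type and less RNA per cell cannot be told apart.

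Of the 40 carriers, 33 were well above background on all 4 arrays. Slc25a23, a calcium-regulated carrier of ATP-Mg and phosphate, missed this on WT alone, and Slc25a34 reached it on TBP-2-/- alone. Slc25a23 read 9.14 on WT, 14.5 on TBP-2-/-, 13.4 on ob/ob and 10.8 on ob/ob TBP-2-/-, at least 1.19-fold higher in TBP-2-/- than in WT. Slc25a34 read 15.4, 16.4, 11.01 and 10.3 in that order. Slc25a18 (a glutamate carrier), Slc25a21 (the oxodicarboxylate carrier), Slc25a31 (the testis form of the ADP/ATP carrier), Slc25a41 and Slc25a43 were not well above background on any array, and no difference is given for them. Spot brightness depends on the probe as well as on the transcript, so signals are compared between arrays and not between genes.

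The carriers spanned a wider range over the 4 arrays than the median gene. Of the 33 measured on all arrays, 17 (51.5%) spanned less than 1.5-fold from the lowest array to the highest, against 69.2% of all 14908 such genes, and the median span was 1.47-fold for the carriers and 1.35-fold for all genes. The log2 difference of 2 arrays below is taken after each array is set to its 75th percentile. Its error is a standard error (SE) from the spot errors of the scanner software, which covers technical error and not the spread between mice. Because each genotype has 1 array, no replicate stands behind a difference, and 1.5-fold is used as the threshold of size.

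**Figure D1:**
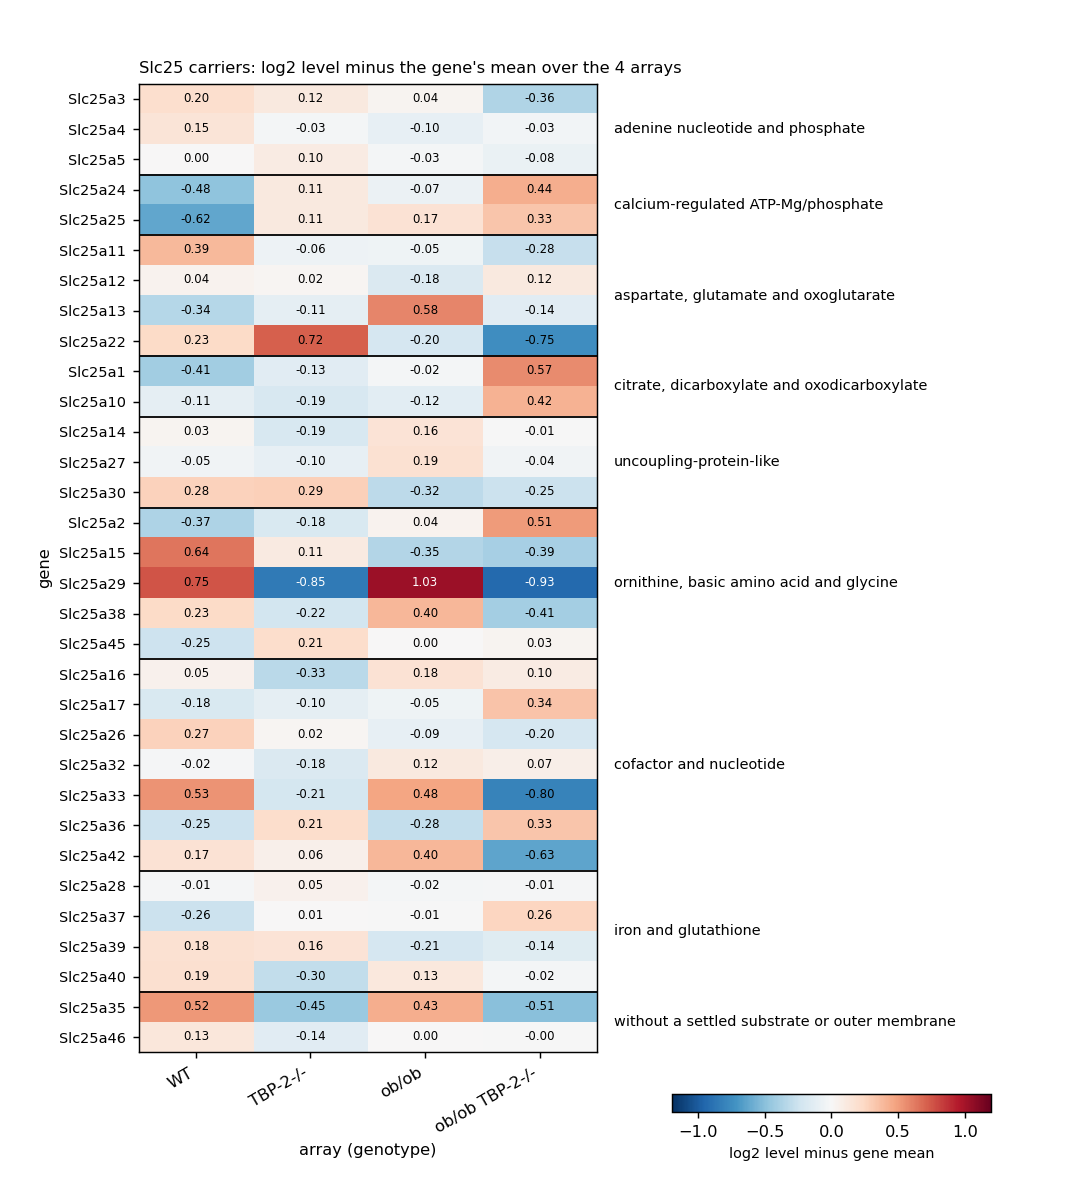
Log2 level of the carriers measured on all 4 arrays (rows, grouped by role; 1 of the 33 is not shown) minus its own mean over the arrays (columns, 1 array per genotype); red is above and blue below the gene's mean. Slc25a29, Slc25a33 and Slc25a35 are below their mean on both arrays without TBP-2 and above it on both arrays with it.

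Loss of TBP-2 went with lower levels of Slc25a29, Slc25a33 and Slc25a35 in lean and in ob/ob muscle. No other of the 33 members passed 1.5-fold in one direction in both comparisons, which share no array: 3 of 33 were lower in both, beside 0.698% of all genes, and 0 were higher in both, beside 1.74%. At 2-fold, 1 of 33 (Slc25a29) was lower in both, beside 0.208% of all genes, and 0 were higher, beside 0.376%. Spike-in scaling, in which arrays are set to added control RNA, left 2 lower in both (Slc25a29 and Slc25a35), beside 0.711% of all genes so scaled. A different background correction (normexp) also left 2 (Slc25a29 and Slc25a33), beside 0.429% of all genes.

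Slc25a29 carries basic amino acids, chiefly arginine and lysine, into the matrix. Its signal was 535 on WT, 193 on TBP-2-/-, 714 on ob/ob and 155 on ob/ob TBP-2-/-, so both arrays without TBP-2 lay below both arrays with it. It was 3.04-fold lower in TBP-2-/- than in WT (log2 difference -1.60 ± 0.20, SE) and 3.89-fold lower in ob/ob TBP-2-/- than in ob/ob (-1.96 ± 0.21). Among the carriers measured this was the largest difference in each of these comparisons. It was past 1.5-fold under all 8 ways of processing tried, with log2 differences from -1.60 to -1.35 in lean muscle and from -2.52 to -1.60 in ob/ob muscle. These 8 are not separate checks. They include the main one, and the authors' table, kept outlier spots and no filter on low signals use the same or nearly the same levels. Its other probe, with signals of 237, 104, 364 and 73.8 in the same order, gave log2 differences of -1.31 and -2.06. The probes lie on chromosome 12 at 109273972 to 109274031 and at 109274310 to 109274369 (mm8, the build of the array's annotation).

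Slc25a33 carries pyrimidine nucleotides across the inner membrane, where they serve the synthesis of mitochondrial DNA and RNA. The signal was 4018 on WT, 2618 on TBP-2-/-, 4260 on ob/ob and 1487 on ob/ob TBP-2-/-, with the double mutant lowest. Loss of TBP-2 went with a 1.68-fold lower level in lean muscle (-0.75 ± 0.20) and a 2.42-fold lower level in ob/ob muscle (-1.28 ± 0.20). On the lean background spike-in scaling brought it under the threshold, to 1.42-fold lower. A second Slc25a33 probe gave signals of 653, 449, 845 and 243, and log2 differences of -0.67 and -1.56. Both probes were lowest on ob/ob TBP-2-/- and next lowest on TBP-2-/- (chromosome 4, 148588404 to 148588463 and 148593123 to 148596256, mm8). Between these 2 arrays the brightest probe differed by -0.58 ± 0.20, just under 1.5-fold.

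Slc25a35 is a carrier without a settled substrate. Its signal was 109 on WT, 61.2 on TBP-2-/-, 113 on ob/ob and 50.01 on ob/ob TBP-2-/-. The difference was alike on both backgrounds, 1.95-fold lower in lean (-0.96 ± 0.21) and 1.92-fold lower in ob/ob muscle (-0.94 ± 0.21), and the latter fell under the threshold with normexp, at 1.40-fold lower. Its other, dimmer probe read 31.7, 20.2, 54.1 and 23.7 on the arrays in that order, with log2 differences of -0.78 and -0.95. The 2 probes parted between ob/ob and WT, with log2 differences of -0.08 for the brighter and 0.63 for the other (chromosome 11, 68788492 to 68788551 and 68790423 to 68790482, mm8).

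**Figure D2:**
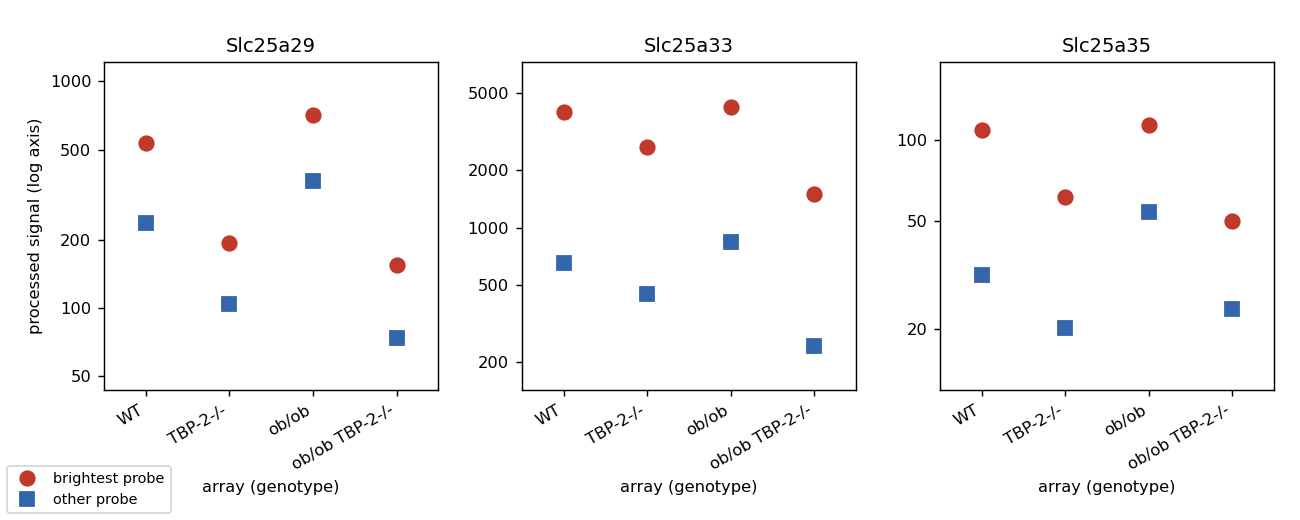
Processed signal (log axis) of the brightest probe (red circles) and the other probe (blue squares) of Slc25a29, Slc25a33 and Slc25a35 on each array (1 array per genotype, so no error bars). In each gene both probes are lower on TBP-2-/- than on WT and lower on ob/ob TBP-2-/- than on ob/ob.

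The RefSeq promoter table holds the starts of Slc25a29 and Slc25a33. The 250 bases before each start are shown because both genes were lower without TBP-2 on both backgrounds, so that their letters can be compared. They lie at chr12:108835877-108836126 and chr4:149774268-149774517, both on the minus strand (GRCm38.p6), and are printed 5′ to 3′ along the gene. Capitals mark matches on either strand to GGGCGG, the GC box bound by Sp factors, and to CACGTG, the E-box bound by many basic helix-loop-helix factors including the Mlx family.
Slc25a29: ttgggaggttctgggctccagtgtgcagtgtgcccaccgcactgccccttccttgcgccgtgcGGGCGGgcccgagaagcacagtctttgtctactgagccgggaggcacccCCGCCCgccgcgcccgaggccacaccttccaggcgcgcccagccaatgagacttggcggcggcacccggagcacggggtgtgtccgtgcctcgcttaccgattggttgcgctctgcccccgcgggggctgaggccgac
Slc25a33: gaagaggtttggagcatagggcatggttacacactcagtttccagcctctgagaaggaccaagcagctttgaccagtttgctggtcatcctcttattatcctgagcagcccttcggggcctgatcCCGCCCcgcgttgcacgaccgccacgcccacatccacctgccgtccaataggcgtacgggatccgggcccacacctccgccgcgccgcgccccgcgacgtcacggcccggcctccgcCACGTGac

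The Slc25a29 stretch held 2 GC boxes and 0 E-boxes, and the Slc25a33 stretch 1 of each, its E-box next to the start. Both are rich in G and C (71.2% and 64.4%, against a median of 52.4% over 32851 promoters). A GC box was found in 32.7% of these promoters and an E-box in 6.02%. Neither stretch held AAGGTCA, the extended half-site of nuclear receptors, which 4.08% of promoters hold. Of 31 carriers in the table, 7 had an E-box before at least 1 start (Slc25a1, Slc25a13, Slc25a14, Slc25a15, Slc25a31, Slc25a33 and Slc25a36), against 6.86% of 27025 genes, and 22 had a GC box, against 35.4%. The half-site was found for 1 of the 31 (Slc25a34), against 4.70% of genes. A match describes letters in this window and not a bound site.

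An additive fit of the TBP-2 and ob genotypes over the 4 arrays (limma, 1 residual degree of freedom, Benjamini-Hochberg adjustment over 16116 genes) called none of the 34 carriers it held for the TBP-2 genotype. It called few genes at all, with 0.0558% higher and 0.0372% lower. The lowest values among the carriers were those of Slc25a29 (fitted log2 difference -1.78 ± 0.18, adjusted p = 0.11), Slc25a35 (-0.95 ± 0.16, adjusted p = 0.236) and Slc25a33 (-1.01 ± 0.20, adjusted p = 0.28). At an unadjusted p under 0.05 it had 6 of the 34 carriers, beside 9.76% of all genes: these 3 with Slc25a38, Slc25a24 and Slc25a36. With the limma prior made robust and dependent on intensity, Slc25a29, Slc25a33 and Slc25a35 passed (adjusted p = 4.33e-05, 0.0085 and 0.0259), beside 1.87% of all genes. The fit takes its error from how far the 4 arrays depart from additive effects, which need not equal the spread between mice.

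**Figure D3:**
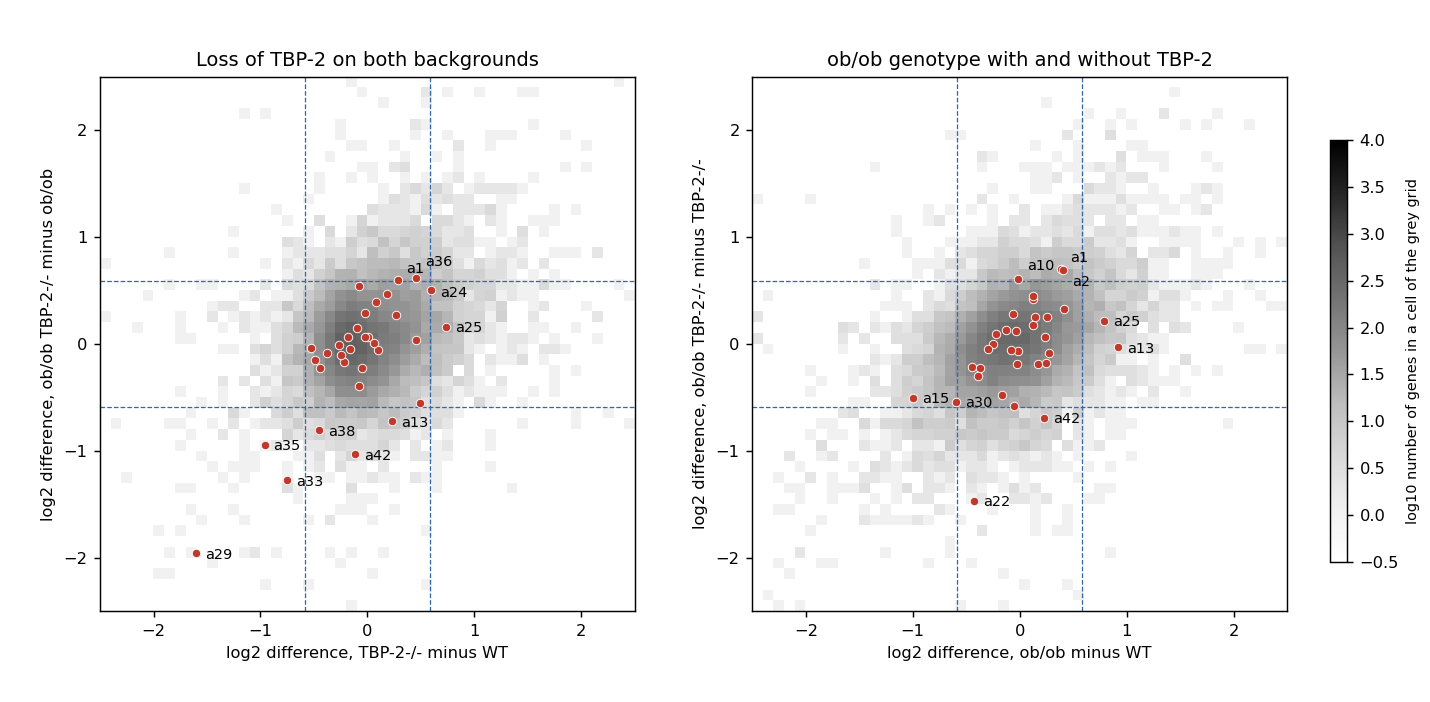
Log2 differences of the 33 carriers measured on all arrays (red points; labelled, without the prefix Slc25, where past 1.5-fold in either comparison) over a grey grid of 14908 genes. Left, loss of TBP-2 in lean (x) and ob/ob muscle (y); right, the ob/ob genotype with (x) and without TBP-2 (y); dashed lines mark 1.5-fold, and Slc25a29, Slc25a33 and Slc25a35 lie past it on the lower side of both left axes.

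Over all carriers, the median difference without TBP-2 was close to that of all genes. On the lean background 2 of 33 were 1.5-fold or more higher and 3 lower, beside 5.91% and 3.29% of all 15220 genes, and the median log2 difference was -0.08, against -0.07 for all genes. On the ob/ob background 2 of 34 were higher and 6 lower, beside 6.62% and 3.52% of 15461 genes, with medians of -0.04 and 0.04. At 2-fold the counts were 0 higher and 1 lower (Slc25a29) on the lean background, beside 1.73% and 0.88% of all genes. They were 0 higher and 3 lower (Slc25a29, Slc25a33 and Slc25a42) on the ob/ob background, beside 1.91% and 0.808%. Spike-in scaling shifted all genes (medians of 0.17 and -0.52) and with them the split of the carriers, to 5 higher and 2 lower of 33 on the lean background, beside 13.5% and 1.34% of all genes so scaled. On the ob/ob background it gave 0 higher and 18 lower of 34 (52.9%), beside 1.31% and 40.6%. Across the 33 carriers, Pearson's r between the lean and the ob/ob difference was 0.698, and 25 had the same sign. Over all genes r was 0.307, and 55.5% had the same sign. The carriers here include Slc25a29, Slc25a33 and Slc25a35, singled out above as lower in both comparisons. Their large differences weigh heavily on r, and r was not taken without them. It therefore does not show that the rest of the family was more alike on both backgrounds than other genes. Genes are not independent replicates, and the 4 values of a gene share its probe.

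Among the carriers of amino acids, Slc25a38, a mitochondrial glycine carrier needed for heme synthesis, followed the same order of arrays as Slc25a29. Its signal was 537 on WT, 430 on TBP-2-/-, 668 on ob/ob and 323 on ob/ob TBP-2-/-. It was 1.75-fold lower without TBP-2 on the ob/ob background (-0.81 ± 0.20), past the threshold, and differed by -0.45 ± 0.20 on the lean background. The summed erythroid markers were highest on ob/ob TBP-2-/-, where Slc25a38 was lowest, and the part of erythroid cells in its values was not tested.

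Slc25a15, the ornithine carrier that links the matrix to the urea cycle and polyamine precursors, was dim, with signals of 32.4 on WT, 24.5 on TBP-2-/-, 17.9 on ob/ob and 14.7 on ob/ob TBP-2-/-. Both ob/ob arrays were below both lean arrays. It was 1.99-fold lower in ob/ob than in WT (-0.99 ± 0.29) and differed by -0.50 ± 0.30 between ob/ob TBP-2-/- and TBP-2-/-. The first of these fell under the threshold with normexp (1.38-fold) and with spike-in scaling (1.25-fold). Its relative Slc25a2 read 23.8, 29.6, 34.8 and 40.7, with the ob/ob arrays above the lean ones, and was 1.61-fold higher in ob/ob TBP-2-/- than in TBP-2-/- (0.69 ± 0.24), under the threshold with normexp (1.32-fold) and spike-in scaling (1.47-fold). Slc25a45, another member of this group, was within 1.5-fold in each comparison, with signals between 45.8 and 68.8.

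Of the nucleotide and cofactor carriers, Slc25a36 stood opposite to Slc25a33, although both carry pyrimidine nucleotides. Its signal was 246 on WT, 370 on TBP-2-/-, 265 on ob/ob and 343 on ob/ob TBP-2-/-, so both arrays without TBP-2 were above both arrays with it. It was 1.53-fold higher without TBP-2 on the ob/ob background (0.61 ± 0.20), which fell under the threshold with normexp (1.42-fold) and with the median of its 2 probes (1.48-fold) and to 1.04-fold with spike-in scaling. On the lean background the difference was 0.46 ± 0.20. Its second probe gave 0.54 and 0.52.

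Slc25a42, which brings coenzyme A into the matrix, had signals of 28.6 on WT, 29.0 on TBP-2-/-, 37.0 on ob/ob and 15.3 on ob/ob TBP-2-/-, with the double mutant apart from the other arrays. It was 2.05-fold lower than in ob/ob (-1.03 ± 0.32) and 1.61-fold lower than in TBP-2-/- muscle (-0.69 ± 0.33). Both differences rest on a dim spot and were 1.13-fold and 1.02-fold with normexp. Of the group, Slc25a16, Slc25a17 (a peroxisomal carrier of cofactors), Slc25a26 (S-adenosylmethionine) and Slc25a32 (folate), were within 1.5-fold in each of the 4 comparisons by their brightest probes. A dimmer Slc25a17 probe differed by 0.78 between ob/ob and WT, against 0.13 for the brightest and 0.07 for the remaining one. Between ob/ob TBP-2-/- and ob/ob it differed by -0.13, against 0.40 and 0.31.

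The ADP/ATP and phosphate carriers, which serve ATP synthesis directly, were within 1.5-fold throughout. Slc25a4, the ADP/ATP carrier of heart and muscle, had signals of 380012 on WT, 367198 on TBP-2-/-, 352559 on ob/ob and 312467 on ob/ob TBP-2-/-, and differences between -0.25 and 0.07. Slc25a5, the ADP/ATP carrier of many other tissues, read 7988, 9371, 8640 and 7036. The probes of such close relatives can share targets. Slc25a3, the phosphate carrier, had 39641, 40963, 38944 and 25095, so the double mutant was lowest. It differed by -0.39 ± 0.20 from ob/ob and by -0.48 ± 0.20 from TBP-2-/-, and its second bright probe by -0.52 and -0.44.

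The calcium-regulated carriers of ATP-Mg and phosphate, which adjust the adenine nucleotide content of the matrix, include Slc25a25 and Slc25a24, both lowest on WT. Slc25a25 had signals of 5941 on WT, 10808 on TBP-2-/-, 11332 on ob/ob and 10724 on ob/ob TBP-2-/-, with WT apart and the other arrays close together. Against WT, the level in TBP-2-/- was 1.66-fold higher (0.73 ± 0.20) and that in ob/ob 1.73-fold higher (0.79 ± 0.20), comparisons that share the WT array. On the other backgrounds the differences were 0.16 ± 0.20 and 0.22 ± 0.20. Its other 2 probes also had WT lowest, with signals of 1734 against 2988 to 3573 and 144 against 259 to 330. Slc25a24 read 179 on WT, 296 on TBP-2-/-, 263 on ob/ob and 316 on ob/ob TBP-2-/-, and was 1.51-fold higher in TBP-2-/- than in WT (0.60 ± 0.21), under the threshold with quantile normalization (1.49-fold) and normexp (1.36-fold). The summed tendon and Schwann cell markers were also lowest on WT, while each of the other marker sums was lowest on another array. The part of these cells in the carrier values was not tested.

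Slc25a22, a mitochondrial glutamate carrier, differed in opposite directions with loss of TBP-2. Its signal was 249 on WT, 383 on TBP-2-/-, 204 on ob/ob and 118 on ob/ob TBP-2-/-, so it was highest in the lean and lowest in the ob/ob animals without TBP-2. The differences were 0.49 ± 0.20 on the lean and -0.55 ± 0.21 on the ob/ob background, each under 1.5-fold. Between ob/ob TBP-2-/- and TBP-2-/- it was 2.76-fold lower (-1.47 ± 0.21), the largest difference among the carriers in that comparison, and between ob/ob and WT it differed by -0.42 ± 0.21. The summed slow fibre markers were lower on both ob/ob arrays too, and their part in this value was not tested.

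The effect of TBP-2 loss in ob/ob muscle minus that in lean muscle was -1.04 ± 0.29 for Slc25a22, -0.95 ± 0.35 for Slc25a13, -0.92 ± 0.42 for Slc25a42 and 0.62 ± 0.29 for Slc25a10. These were the carriers past 1.5-fold in this difference, 3 lower and 1 higher of 33, beside 6.37% and 8.2% of all genes. Past 2-fold were 1 lower (Slc25a22) and 0 higher, beside 1.93% and 1.71%. The design leaves no test of it. Slc25a13, the aspartate and glutamate carrier citrin of liver, was dim, with signals of 27.6 on WT, 35.5 on TBP-2-/-, 57.7 on ob/ob and 29.6 on ob/ob TBP-2-/-, so ob/ob stood apart. The ob/ob level was 1.90-fold above WT (0.92 ± 0.25), and ob/ob TBP-2-/- was 1.65-fold below ob/ob (-0.72 ± 0.24), comparisons that share the ob/ob array. With normexp they were 1.21-fold and 1.09-fold. Its muscle counterpart Slc25a12, aralar, had signals between 23002 and 26181 and differences between -0.22 and 0.29. Slc25a11, the oxoglutarate and malate carrier of the same shuttle, had signals of 40524 on WT, 32536 on TBP-2-/-, 32910 on ob/ob and 23826 on ob/ob TBP-2-/-, and differences between -0.45 and -0.22.

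The carriers that export citrate and dicarboxylates were highest in the double mutant with the main processing. Slc25a1, the citrate carrier that supplies acetyl-CoA for fatty acid synthesis in the cytosol, had signals of 137 on WT, 182 on TBP-2-/-, 198 on ob/ob and 253 on ob/ob TBP-2-/-. It was 1.51-fold higher in ob/ob TBP-2-/- than in ob/ob (0.59 ± 0.20) and 1.63-fold higher than in TBP-2-/- (0.70 ± 0.20). Normexp brought these to 1.40-fold and 1.49-fold, and spike-in scaling to 1.03-fold and 1.48-fold. Slc25a10, the dicarboxylate carrier, read 254, 263, 277 and 341. It was 1.52-fold higher in ob/ob TBP-2-/- than in TBP-2-/- (0.61 ± 0.20), and 1.41-fold with normexp and 1.39-fold with spike-in scaling. Against ob/ob it was 1.45-fold higher in ob/ob TBP-2-/- (0.54 ± 0.20), under the threshold. Spike-in scaling lowers this log2 difference by the same amount as that of Slc25a1, which went from 0.59 to 0.04. With that scaling Slc25a10 was therefore not highest in the double mutant. Adipocytes also express both genes, and their part in these values was not tested. Of the 6 adipocyte markers, 0 were below 0 in ob/ob TBP-2-/- minus ob/ob (median log2 difference 1.30) and 1 in ob/ob TBP-2-/- minus TBP-2-/- (median 0.52), although their summed signal was lower on ob/ob TBP-2-/- than on TBP-2-/-.

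By the brightest probes, 0 of 33 carriers differed by 1.5-fold or more the same way between ob/ob and lean muscle with and without TBP-2. Beside this, 1.97% of all genes were higher in both and 1.83% lower. At 2-fold these shares of all genes were 0.436% and 0.51%. With shares this small, 0 of 33 does not set the carriers apart from all genes. With the median of a gene's probes 1 carrier, Slc25a30, was 1.5-fold or more lower in both, beside 1.79% of all genes. With TBP-2, 2 of 33 carriers were higher (Slc25a13 and Slc25a25) and 2 lower (Slc25a15 and Slc25a30), beside 6.2% and 6.8% of 15088 genes. Without TBP-2, 3 of 34 were higher (Slc25a1, Slc25a2 and Slc25a10) and 2 lower (Slc25a22 and Slc25a42), beside 6.39% and 4.91% of 15619 genes. At 2-fold the counts were 0 higher and 0 lower with TBP-2, beside 1.88% and 1.74% of genes, and 0 higher and 1 lower (Slc25a22) without it, beside 1.79% and 1.57%. Spike-in scaling gave 22 higher (66.7%) and 0 lower with TBP-2, beside 54.3% and 0.974% of all genes so scaled, whose median moved to 0.62. Without TBP-2 it gave 0 higher and 6 lower (17.6%), beside 4.03% and 7.96%. The median differences of the carriers were -0.01 and -0.04, against -0.05 and 0.04 for all genes. The additive fit called 0 of 34 carriers for the ob genotype, beside 0.0993% of genes higher and 0.124% lower. At an unadjusted p under 0.05 it had 5 (Slc25a1, Slc25a2, Slc25a15, Slc25a22 and Slc25a30), beside 13.6% of genes.

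Slc25a30, an uncoupling-protein-like carrier first described in kidney, was lower on both ob/ob arrays. Its signal was 106 on WT, 116 on TBP-2-/-, 77.1 on ob/ob and 68.1 on ob/ob TBP-2-/-. It was 1.51-fold lower in ob/ob than in WT (-0.60 ± 0.21), a difference that spike-in scaling turned to 1.05-fold higher, and differed by -0.54 ± 0.21 without TBP-2. A second probe gave -0.62 and -0.71. The related Slc25a14 and Slc25a27 were within 1.5-fold by their brightest probes. Another Slc25a27 probe read 54.8, 56.6, 153 and 48.1, so it stood apart on ob/ob, which the remaining probe, between 135 and 160, did not.

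The carriers of iron and glutathione were within 1.5-fold by their brightest probes. Slc25a28 and Slc25a37, the mitoferrins that bring iron into the matrix, had signals between 2617 and 3212 and between 1028 and 1377. Slc25a37 had WT lowest and differed by between 0.25 and 0.27 in the 4 comparisons, while its dim second probe differed by -0.54 between ob/ob TBP-2-/- and ob/ob. Slc25a39, a carrier of glutathione, read 6070 on WT, 6551 on TBP-2-/-, 5113 on ob/ob and 4522 on ob/ob TBP-2-/-, with both ob/ob arrays below both lean ones, and differences of -0.39 and -0.30 between them. Slc25a40, its close relative, read 72.1, 56.3, 76.4 and 58.2. Slc25a46, an outer membrane protein tied to mitochondrial fission, had signals between 4038 and 4791; its brightest probe and a dim one differed by -0.13 and 0.46 between ob/ob and WT.

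A gene's other probes were set beside the brightest one by the size and by the sign of the difference. Most carriers differed by less than 1.5-fold, so closeness in size is easily met and is a weak check. In TBP-2-/- minus WT all 20 other probes measured were within 1.5-fold of the brightest probe's difference, as were 17 of 19 in ob/ob TBP-2-/- minus ob/ob, 16 of 20 in ob/ob minus WT and 18 of 19 in ob/ob TBP-2-/- minus TBP-2-/-. The sign was the same in 17 of 20, 12 of 19, 14 of 20 and 14 of 19, in that order of comparisons.

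Carriers of the family that bear other names in the files give a comparison. RefSeq now gives an Slc25 name to 5 probes outside the rule. Of these, AI132487, now Slc25a47, a carrier known mainly from liver, was well above background on every array and had signals of 394 on WT, 250 on TBP-2-/-, 555 on ob/ob and 236 on ob/ob TBP-2-/-. Both arrays without TBP-2 were below both arrays with it, as for Slc25a29. It was 1.73-fold lower in lean muscle (-0.79 ± 0.20) and 1.99-fold lower in ob/ob muscle (-0.99 ± 0.20) without TBP-2. Its probe lies on chromosome 12 at 109304258 to 109304317 (mm8). The brightest Slc25a29 probe lies close by, at 109273972 to 109274031 on the same chromosome, so the 2 genes do not stand for separate places in the genome. Whether this bears on their like values was not tested. The probes for Slc25a48 (AU042651) and Slc25a54 (4930443G12Rik) were not well above background on any array. A probe now assigned to Slc25a51 (9130208E07Rik) was above it only on the arrays without TBP-2, at least 1.66-fold and 1.698-fold higher there, while the much brighter Slc25a51 probe, Mcart1, differed by -0.35 ± 0.20 and -0.02 ± 0.20. Of the 6 genes found from a list of carriers with other names (Ucp1, Ucp2, Ucp3, Mtch1, Mtch2 and Mcart1), Ucp1 was not well above background on any array and none of the others passed the additive fit for either genotype. Ucp3, the uncoupling protein of muscle, had signals of 1411 on WT, 2148 on TBP-2-/-, 556 on ob/ob and 717 on ob/ob TBP-2-/-, so both ob/ob arrays were below both lean ones. Its ob/ob level was 2.80-fold below WT (-1.49 ± 0.20), and without TBP-2 the ob/ob level was 2.55-fold below the lean one (-1.35 ± 0.20). Its adjusted p for the ob genotype in the additive fit (limma) was 0.0868. Loss of TBP-2 went with a 1.52-fold higher level in ob/ob muscle, and the lean difference was 0.48 ± 0.20. Ucp2, which is also abundant in macrophages, read 62.2, 126, 59.4 and 88.1, and was 1.86-fold and 1.75-fold higher without TBP-2 on the lean and ob/ob backgrounds. The summed macrophage markers were higher on those arrays too, and their part in the Ucp2 values was not tested. The differences of these carriers with other names are given for the main processing only. Spike-in scaling shifts all genes of a comparison alike. For loss of TBP-2 it moved the median of all genes from -0.07 to 0.17 in lean muscle and from 0.04 to -0.52 in ob/ob muscle.

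The mitochondrial pyruvate carrier is a separate family that feeds the same matrix pathways. Its subunit gene Mpc1 had signals of 40371 on WT, 26646 on TBP-2-/-, 42126 on ob/ob and 24329 on ob/ob TBP-2-/-, so both arrays without TBP-2 were below both arrays with it, by 1.66-fold (-0.73 ± 0.20) and 1.46-fold (-0.55 ± 0.20). Mpc2 and the outer membrane channel genes Vdac1, Vdac2 and Vdac3 were within 1.5-fold in each comparison. Of the 10 genes for import of carrier proteins, 9 were within 1.5-fold in each comparison. Tomm40, the channel of the outer membrane import complex, read 230 on WT, 257 on TBP-2-/-, 277 on ob/ob and 116 on ob/ob TBP-2-/-, and was 2.01-fold lower than in ob/ob and 1.89-fold lower than in TBP-2-/- on the double mutant array. Of the calcium uniporter genes, Mcu and Micu2 were within 1.5-fold. The dim Mcub was at least 1.95-fold higher in TBP-2-/- than in WT, where it was not well above background, and it was 1.64-fold lower in ob/ob TBP-2-/- than in TBP-2-/-. Its signals were 8.90, 23.8, 17.8 and 12.3 in the order above. None of the pyruvate carrier, channel, import and uniporter genes passed the additive fit. Their differences too are given for the main processing only, and spike-in scaling shifts them as it does all genes.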

How the data were processed

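RNA of 4 genotypes was measured on 1-colour Agilent arrays, 1 array each. Per the submitters' processing notes and the file headers, the authors made spot intensity values with Agilent Feature Extraction 9.5.3.1. The deposited processed signal is background-subtracted and detrended within the array and not scaled between arrays. The log2 value table that the authors deposited is centred on each probe's median, and its differences between arrays matched the scaled scanner signals (slope 1.00 over 21736 probes). It has no missing value, and its column medians were 0.09, -0.06, -0.01 and 0.009.

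Outlier spots (59 to 110 an array) were left out, spots of a probe were averaged as log2, and each array was set to its 75th percentile over 41174 probes. No spot was saturated. Probes outside the family were named through RefSeq (GRCm38.p6) accessions (24375), symbols (6301) or synonyms (2426), or kept the files' name (8072). A gene's probe was the one with the highest mean level. A pairwise difference needed both arrays well above background. Where 1 array was not, "at least N-fold" takes for the dim side the array's lowest signal well above background, or the probe's signal if that is brighter (lowest signals: 11.2, 9.37, 10.8 and 9.15 on WT, TBP-2-/-, ob/ob and ob/ob TBP-2-/-). Intervals from counts do not apply; the number of arrays limits the precision. Summed marker signals were scaled to the mean 75th percentile.

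The additive fit used limma 3.58.1 (lmFit, eBayes) in R 4.3.3 on genes that 2 or more arrays measured well above background, with an adjusted p threshold of 0.05 and 3.68 prior degrees of freedom. Named carriers are those of the 5 brightest probes, up to 5 each way past 1.5-fold per comparison, those past it in both comparisons of a pair, those whose probes disagree, and those not above background. Slc25a5, Slc25a14, Slc25a16, Slc25a17, Slc25a23, Slc25a26, Slc25a27, Slc25a28, Slc25a32, Slc25a34, Slc25a39, Slc25a40 and Slc25a45 lie outside this rule and are named to account for the members, after their values were seen. Some genes that enter the counts are not reported here by name. Members, lists and rules were chosen with earlier results of these data known. Quantile normalization, normexp (offset 50), spike-in scaling, the authors' table, the median of a gene's probes, no filter on low signals, kept outliers and another limma prior were the alternatives. Promoter sequences are from RefSeq (31 of 40 members matched).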

Additional observations from a re-analysis of the deposited data

Results flagged for a closer look

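A probe of Slc25a40 that the comparisons do not use gave a signal of 131 on ob/ob TBP-2-/- and was not well above background on the other arrays, at least 12.6-fold above WT. The gene's brightest probe read 58.2 on the same array, and its other 2 probes were not well above background on any array.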

How the results depend on the processing

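Spike-in scaling moved the carriers' medians to 0.16 (TBP-2-/- minus WT), -0.60 (ob/ob TBP-2-/- minus ob/ob) and 0.65 (ob/ob minus WT), and turned the Slc25a30 log2 difference in ob/ob minus WT to 0.072. It gave 5 carriers 1.5-fold higher in TBP-2-/- minus WT, and 0 higher and 18 lower (7 of them 2-fold) in ob/ob TBP-2-/- minus ob/ob. It gave 22 higher (5 of them 2-fold) and 0 lower in ob/ob minus WT, and 0 higher and 6 lower in ob/ob TBP-2-/- minus TBP-2-/-. Of all genes 13.5%, 1.31%, 54.3% and 4.03% were higher and 1.34%, 40.6%, 0.974% and 7.96% lower in these 4 comparisons. At 2-fold 6.68% of all genes were lower in ob/ob TBP-2-/- minus ob/ob and 14.9% higher in ob/ob minus WT. With normexp 1 carrier was 1.5-fold higher in TBP-2-/- minus WT, 0 higher and 3 lower in ob/ob TBP-2-/- minus ob/ob, 1 higher and 0 lower in ob/ob minus WT, and 0 higher in ob/ob TBP-2-/- minus TBP-2-/-; of all genes 2.11%, 2.69%, 2.23% and 2.48% were higher and 1.4%, 1.53%, 3.88% and 2.41% lower in these 4 comparisons. Quantile normalization gave 1 carrier 1.5-fold higher and 2 carriers 2-fold lower in TBP-2-/- minus WT (of all genes 5.49% and 1.02%), and 1 carrier 2-fold lower in ob/ob minus WT (1.71%). The median of a gene's probes gave 1 carrier 1.5-fold higher in ob/ob TBP-2-/- minus ob/ob, 4 lower in ob/ob TBP-2-/- minus TBP-2-/- and 1 (Slc25a30) lower in both ob comparisons (of all genes 6.35%, 5.06% and 1.79%). Without the filter on low signals 4 carriers were 1.5-fold higher in TBP-2-/- minus WT (1 of them 2-fold) and 4 in ob/ob minus WT (2 of them 2-fold). In ob/ob TBP-2-/- minus TBP-2-/- 5 were higher and 4 lower, and 1 (Slc25a41) was higher in both ob comparisons. The carriers added are not above background. Of all genes 10.3%, 9.32% and 10.4% were then higher in these 3 comparisons. In the third 8.39% were lower, and 2.8% were higher in both ob comparisons. At 2-fold 4.74% were higher in TBP-2-/- minus WT and 4.23% in ob/ob minus WT. In the additive fit for TBP-2, 3 carriers passed with normexp (Slc25a29, Slc25a33 and Slc25a38), 1 with spike-in scaling (Slc25a29) and 3 with the robust prior, and for ob 1 passed with normexp (Slc25a22). That fit called 15 genes for TBP-2 and 36 for ob in all, against 0 and 0 with quantile normalization, 470 and 794 with normexp, 88 and 217 with spike-in scaling, 301 and 621 with the robust prior, and 7 and 0 without the filter. The adjusted p of Slc25a29 in the additive fit (limma) lay between 4.51e-15, with normexp, and 0.372, without the filter. With normexp and spike-in scaling the prior degrees of freedom were infinite (3.68 in the main fit), so every gene was given the same error. Their p-values and counts rest on that and cannot be set beside those of the main fit as like tests. The authors' table and kept outlier spots each gave 3 carriers 1.5-fold lower in ob/ob TBP-2-/- minus TBP-2-/-, against 2 in the main processing. Of all genes 5.01% were then lower, against 4.91%. Both left the other carrier counts of the 4 comparisons as they were. The cause of these changes was not tested. No paired analysis was possible because each genotype has 1 array, and no array can be left out of the additive fit with a residual degree of freedom remaining. Signals near background, as of Slc25a13, Slc25a15 and Slc25a42, limit what can be said of these genes.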
